A study of Homo sapiens with 6 samples.

Results

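The tripartite motif (TRIM) family genes were followed in BT-549 cells, an established triple-negative breast cancer line with a mesenchymal phenotype, with and without silencing of PBRM1, the bromodomain subunit of the PBAF chromatin remodeling complex. The family was chosen with earlier results of these data known. Its members were then taken by name alone, as the genes whose symbol is TRIM followed by a number, with no measured value in that rule. This gave 66 of the 37887 genes in the count table. Of these, 41 had a mean of 10 or more counts over the 6 libraries and are described below, 12 had a lower mean, and 13 had no count in any library.

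The libraries were poly(A) RNA-seq libraries from 3 control (shCTL) and 3 shPBRM1 cultures. By the study's design text, the cells stably carried a tetracycline-inducible PBRM1 shRNA vector, with 0.1% DMSO given to the controls and 500 ng/ml doxycycline to the silenced cells, whereas the sample titles call the first group control shRNA. By the design text, exposure to doxycycline and silencing of PBRM1 cannot be told apart. By the titles, the groups would be separately transduced cells, and differences between these cells could not be told apart from silencing. In either case effects of this shRNA on other transcripts cannot be told apart from it. Whether the cells were 1 clone or a pool, and for how long they were treated, is not given in the sources used here. RNA came from cells grown in triplicate, and the p-values measure the spread between these samples, which may be partly technical.

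Library totals ranged from 36429395 to 65096297 counts, so that 3 counts corresponded to 0.0471 to 0.0804 CPM, the read count scaled to a common library size. PBRM1 itself was at 158 ± 2.30 CPM in shCTL and 41.9 ± 1.22 CPM in shPBRM1 cells (mean ± SD, n = 3 here and throughout), and its levels did not overlap between the groups. The mesenchymal markers VIM, FN1 and CDH2 were at 621, 554 and 252 CPM in shCTL cells. In shPBRM1 cells they were at 770, 221 and 366 CPM, so that FN1 was lower and VIM and CDH2 were higher. The epithelial marker CDH1 was also detected, with 186, 226 and 271 counts in shCTL and 110, 58 and 77 in shPBRM1. The estrogen receptor gene ESR1 had no more than 2 counts in any library and the progesterone receptor gene PGR no more than 12. ERBB2 was at 51.3 CPM in shCTL cells. Of 7 markers of immune, endothelial and fat cells, the T-cell gene CD3E and the adipocyte gene ADIPOQ had no count at all. Summed over the 7 markers, the level was 0.911 to 1.49 CPM in the shCTL libraries and 0.206 to 0.300 CPM in the shPBRM1 libraries; the leukocyte gene PTPRC gave 26, 40 and 44 of these counts against 12, 4 and 6. These marker levels were lower in shPBRM1 along with the TRIM genes below, and their part in the results was not tested. In bulk RNA, fewer cells of a kind and less RNA in each cell cannot be told apart.

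TRIM proteins typically carry a RING domain, a B-box and a coiled coil, followed by a C-terminal region that differs between subfamilies, such as a SPRY domain, NHL repeats or a PHD-bromodomain module. The RING makes many of them E3 ubiquitin ligases. A subset of the family is induced by interferons (IFN) and restricts viruses or tunes innate immune signaling, whereas other members act in transcription, development, muscle or nerve cells.

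Of the 66 members, 43 passed the filter on low counts and entered the test, the quasi-likelihood F-test of edgeR, with p-values adjusted by Benjamini and Hochberg's method across the 15450 genes that passed. In shPBRM1 cells, 10 of the 43 were lower at an adjusted p under 0.05 with a fold change over 2, compared with 9.68% of all genes tested. In the other direction 1 member, TRIM61, passed both limits, compared with 2.87% of all genes. Without the limit on fold change, 23 members were lower and 6 were higher, beside 33.2% and 31.5% of all genes, and 14 did not pass. The shCTL and shPBRM1 levels did not overlap for 26 members that were higher in shCTL (35.0% of all genes) and for 4 that were higher in shPBRM1 (33.3% of all genes). The median log2 fold change of the 43 members was -0.31, beside -0.0080 for all genes tested. It stayed at this value with TRIM22, which had no count in shPBRM1, set at the smallest fall its counts allow. Changes within 1.5-fold were found for 58.1% of the members and 70.9% of all genes. The filter admits a gene through either group, so a gene with too few counts in 1 group enters the test through the other group alone. This holds for TRIM22, TRIM38 and TRIM67, which entered through shCTL and count among the 10 lower members. That count is thus partly set by the filter. TRIM55, which was not called, also entered through shCTL alone. With scaling by library size only, 26 members were lower and 2 higher, and without shCTL replicate 2 the count of higher members was 3.

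**Figure D1:**
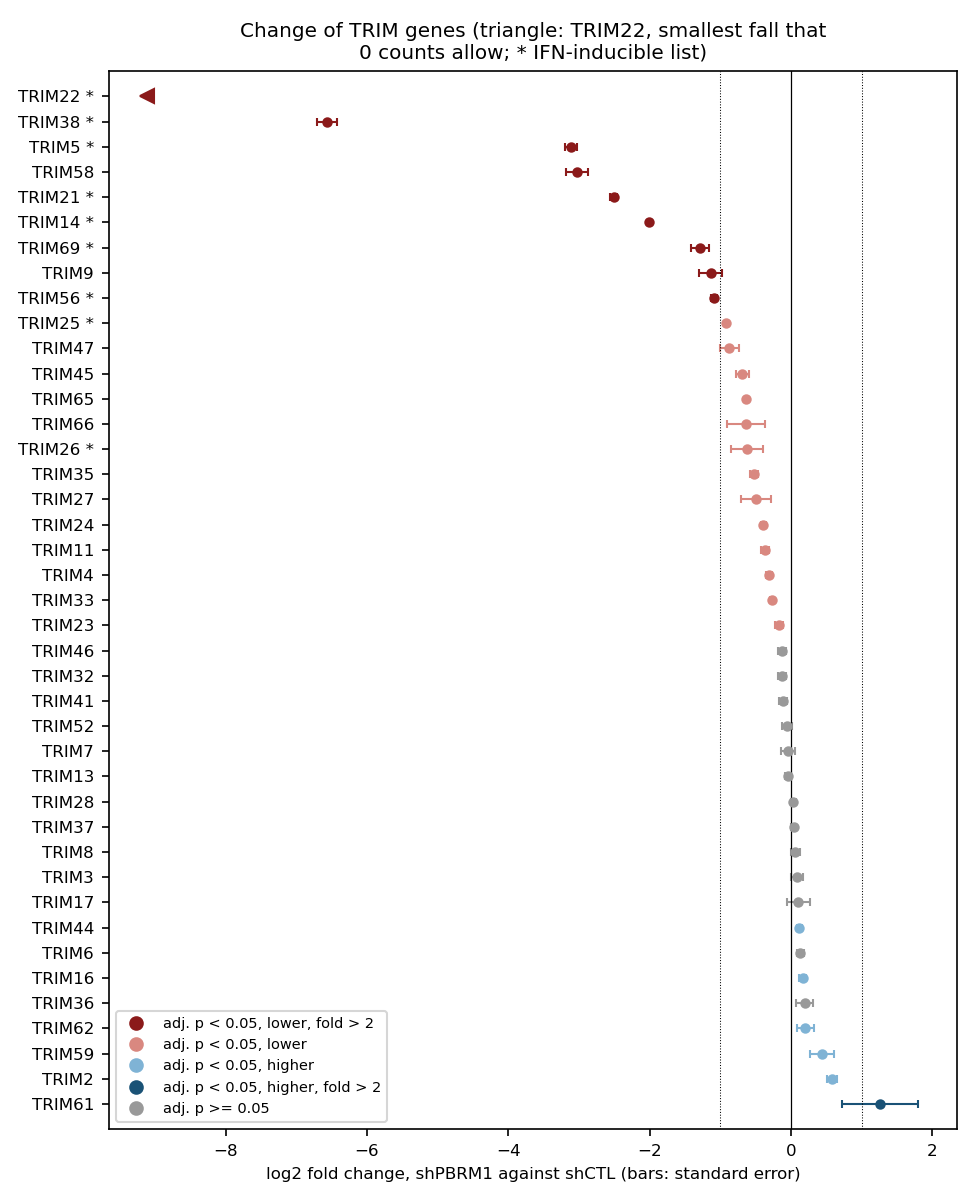
Log2 fold change of shPBRM1 against shCTL (horizontal axis) for the 41 TRIM genes with a mean of 10 or more counts, with bars for the standard error and colors for the call by edgeR. Dotted lines mark a 2-fold change. The genes of the IFN-inducible list, marked by a star, all lie left of 0, and TRIM61 is the only gene to the right of the upper dotted line.

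The TRIM genes that were listed here as IFN-inducible were lower as a group in shPBRM1 cells. The list held 10 genes, of which 9 had enough counts to be tested and TRIM34 had no count. It need not be complete, and members outside it may also respond to IFN. All 9 tested genes fell, 7 of them by more than 2-fold, beside 33.2% and 9.68% of all genes tested. Their median log2 fold change was -2.004, and the groups did not overlap for any of the 9 (35.0% of all genes). The other 34 tested members had a median of -0.12, with 14 lower (3 over 2-fold), 6 higher (1 over 2-fold) and 14 that did not pass the test. The list was drawn up with results from these samples known, so these counts describe it and are not independent evidence of its direction. Its members TRIM22 and TRIM38 also entered the test through shCTL alone.

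TRIM22, an IFN-induced antiviral factor, was at 31.7, 32.4 and 32.1 CPM in the shCTL libraries and had 0 counts in each of the 3 shPBRM1 libraries. Its level was thus at least 552-fold lower, taking 3 counts in each shPBRM1 library as the floor. TRIM38, a negative regulator of inflammatory signaling, was at 14.7, 14.8 and 14.9 CPM in shCTL and 0.183, 0.154 and 0.126 CPM in shPBRM1. The raw counts of TRIM38 were 548, 721 and 750 against 11, 6 and 8, leaving 1.04% of the control level (log2 fold change -6.57, standard error (SE) 0.14, adjusted p = 1.67e-20). Both genes went from clearly detected in all shCTL libraries to absent or nearly so in all shPBRM1 libraries. They lie on different chromosomes, TRIM22 at chr11:5689689-5737089 and TRIM38 at chr6:25962802-25991226 (GRCh38, GENCODE v29, both plus strand).

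TRIM5, the restriction factor that recognizes incoming retroviral capsids, was at 18.9, 19.4 and 17.8 CPM in shCTL and 2.38, 1.98 and 2.07 CPM in shPBRM1 (log2 fold change -3.11, SE 0.085, adjusted p = 3.26e-18). For TRIM21, the cytosolic antibody receptor also known as Ro52, the values were 27.1, 29.2 and 30.0 CPM against 5.21, 5.09 and 4.90 CPM (log2 fold change -2.51, SE 0.051, adjusted p = 1.67e-18). TRIM14, an adaptor of mitochondrial antiviral signaling that lacks a RING domain, was at 74.8, 73.8 and 73.9 CPM in shCTL and 18.1, 18.8 and 18.7 CPM in shPBRM1 (log2 fold change -2.004, SE 0.018, adjusted p = 9.12e-21). In each of these 3 genes the libraries of a group lay close together and the groups were far apart. The lowest shCTL value of TRIM5, TRIM21 and TRIM14 was in each case several times the highest shPBRM1 value.

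The other 4 tested genes of the list fell by smaller factors. TRIM69, a microtubule-binding ligase with antiviral activity, was at 3.403, 3.25 and 2.93 CPM in shCTL and 1.47, 1.34 and 1.13 CPM in shPBRM1 (log2 fold change -1.29, SE 0.13, adjusted p = 3.97e-07). TRIM56, an antiviral ligase of the innate sensing pathways, was at 178, 166 and 172 CPM against 83.1, 82.2 and 78.1 CPM (log2 fold change -1.08, SE 0.041, adjusted p = 2.79e-17). Neither gene overlapped between the groups. TRIM25, the ligase that activates the RNA sensor RIG-I, was at 232, 239 and 232 CPM in shCTL and 124, 124 and 123 CPM in shPBRM1. Its log2 fold change of -0.93 (SE 0.015, adjusted p = 1.45e-16) was just short of 2-fold, at 52.7% of the control level. TRIM26, a ligase encoded in the MHC region, varied most within a group, with 18.2, 14.98 and 11.5 CPM in shCTL and 10.6, 10.3 and 8.10 CPM in shPBRM1 (log2 fold change -0.62, SE 0.23, adjusted p = 9.80e-05). The lowest shCTL library of TRIM26 was thus only slightly above its highest shPBRM1 library.

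**Figure D2:**
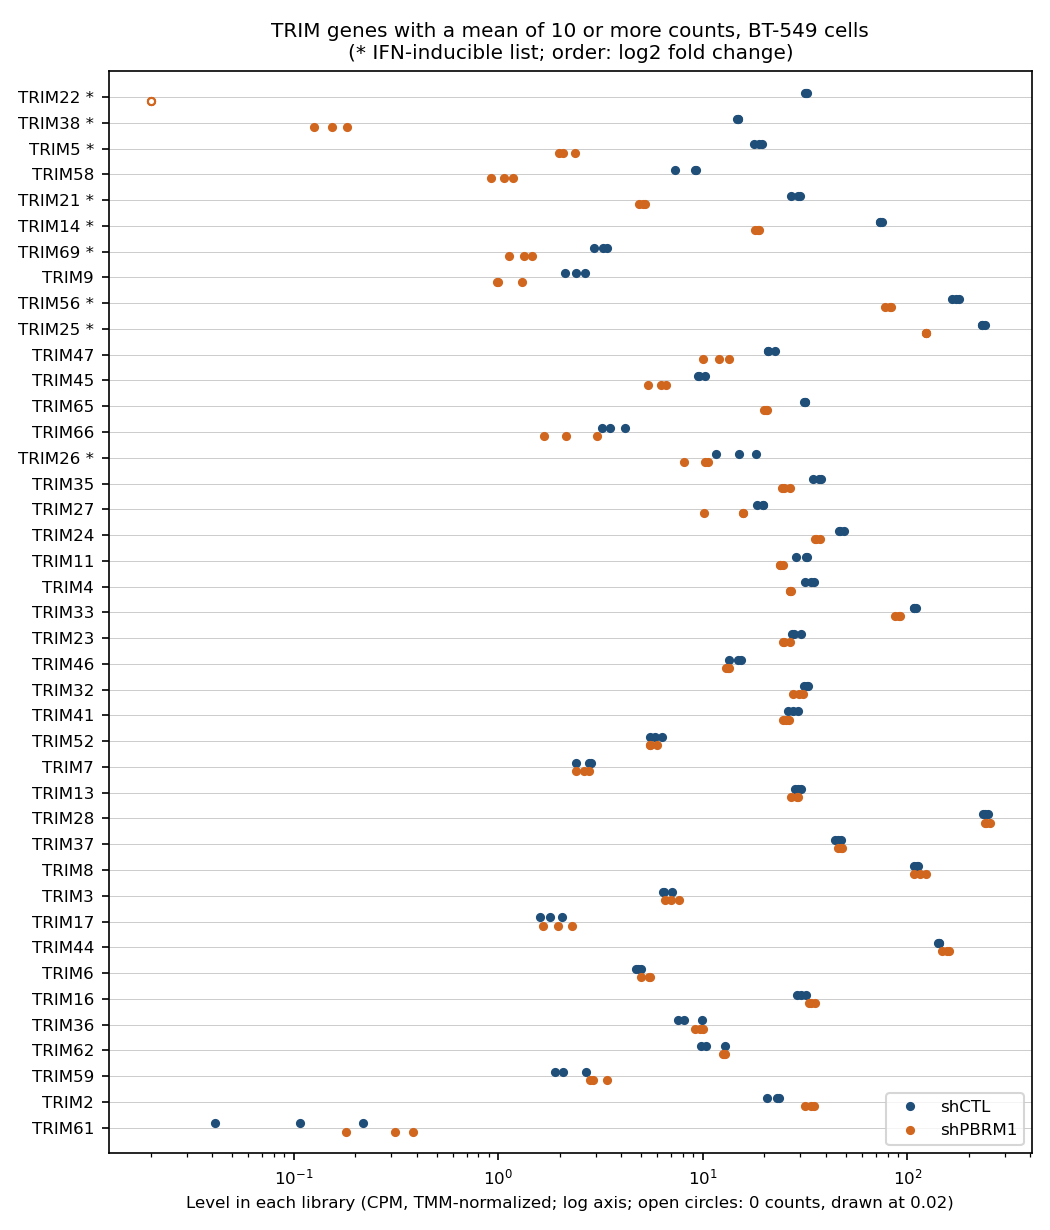
Level of the 41 TRIM genes with a mean of 10 or more counts in each of the 6 libraries, in CPM on a logarithmic axis, with shCTL in blue and shPBRM1 in orange and the genes ordered by log2 fold change. The open circle drawn at 0.02 stands for TRIM22, which had 0 counts in all 3 shPBRM1 libraries. The libraries of the 2 groups lie apart for the genes at the top and close together for the genes in the middle of the plot.

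The TRIM RNA pool was smaller and differently made up in shPBRM1 cells. Summed over the 66 genes, TRIM RNA was at 1706, 1723 and 1714 CPM in the shCTL libraries and 1316, 1301 and 1285 CPM in the shPBRM1 libraries, so that 75.9% was left and the groups did not overlap. The 10 genes of the IFN-inducible list went from 593 ± 5.80 to 241 ± 4.73 CPM, or 40.7% of the control level. All other members together went from 1121 ± 12.7 to 1059 ± 11.2 CPM, with 94.4% left. The share of the listed genes in all TRIM RNA was 34.6% ± 0.457 in shCTL and 18.6% ± 0.185 in shPBRM1 cells, and they held 84.9% of the difference between the sums. Because the list was drawn up with results from these samples known, these sums and shares describe it and are not independent evidence.

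**Figure D3:**
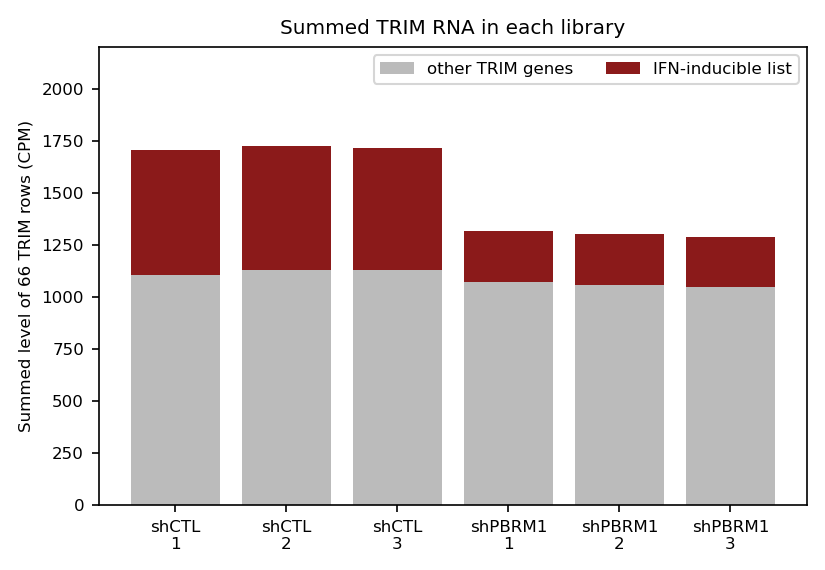
Summed level of the 66 TRIM genes in each library in CPM, with the 10 genes of the IFN-inducible list in red and all other TRIM genes in grey. Total height is between 1706 and 1723 CPM in the shCTL libraries and between 1285 and 1316 CPM in the shPBRM1 libraries, and the red section shrinks to 40.7% of its control mean.

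Promoter sequence was examined for the same genes, since IFN-responsive genes commonly carry an IFN-stimulated response element (ISRE), a site bound by IRF and STAT complexes. RefSeq windows of 300 bases (250 before and 50 after the annotated start, GRCh38.p14) had an entry for 52 of the 66 members and for 32 of the 43 tested. The ISRE core, GAAA followed by any 2 bases and another GAAA, searched on both strands with overlapping matches kept, occurred in 8 of these 32 windows and in 3.65% of the windows of all 27305 genes. It was present in 4 of the 9 windows of members that fell by over 2-fold (TRIM5, TRIM14, TRIM21 and TRIM69) and in 4 of the other 23 (TRIM2, TRIM16, TRIM26 and TRIM44). The last group holds 3 genes that were higher in shPBRM1, TRIM2, TRIM16 and TRIM44 (log2 fold changes 0.58, 0.17 and 0.12). Whether the match goes with the direction of change was not tested. The gamma-activated sequence TTCNNNGAA occurred in 7.88% of all windows, in 3 of the 32 (TRIM2, TRIM3 and TRIM16) and in 0 of the 9. The windows of the 5 tested IFN-inducible genes with an ISRE core are shown to let the matches be compared. TRIM34, the listed gene with no count, also had the core, 90 bases before its start, and is not shown. The window of TRIM38 is added as a strongly lowered gene without one. Each is written from 5′ to 3′ on the strand of the gene, with the bases of the ISRE core or its reverse complement in capitals.
TRIM5 (chr11:5685025-5685324, minus strand): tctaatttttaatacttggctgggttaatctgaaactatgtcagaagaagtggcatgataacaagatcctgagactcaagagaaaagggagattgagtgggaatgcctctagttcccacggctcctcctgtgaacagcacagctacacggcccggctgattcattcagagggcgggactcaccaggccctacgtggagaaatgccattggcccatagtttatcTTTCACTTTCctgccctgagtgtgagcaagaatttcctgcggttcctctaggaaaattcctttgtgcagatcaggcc
TRIM14 (chr9:98119173-98119472, minus strand): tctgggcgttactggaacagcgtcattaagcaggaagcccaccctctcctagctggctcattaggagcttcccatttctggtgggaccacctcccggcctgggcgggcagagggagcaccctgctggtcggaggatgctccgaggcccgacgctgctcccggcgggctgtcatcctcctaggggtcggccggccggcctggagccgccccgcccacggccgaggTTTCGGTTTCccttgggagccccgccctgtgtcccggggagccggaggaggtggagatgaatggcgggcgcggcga
TRIM21 (chr11:4393653-4393952, minus strand): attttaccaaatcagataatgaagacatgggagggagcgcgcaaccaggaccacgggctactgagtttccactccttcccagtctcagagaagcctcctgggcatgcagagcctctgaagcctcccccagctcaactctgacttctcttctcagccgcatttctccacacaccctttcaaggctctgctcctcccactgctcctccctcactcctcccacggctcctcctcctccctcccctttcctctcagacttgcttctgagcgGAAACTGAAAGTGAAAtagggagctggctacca
TRIM26 (chr6:30213357-30213656, minus strand): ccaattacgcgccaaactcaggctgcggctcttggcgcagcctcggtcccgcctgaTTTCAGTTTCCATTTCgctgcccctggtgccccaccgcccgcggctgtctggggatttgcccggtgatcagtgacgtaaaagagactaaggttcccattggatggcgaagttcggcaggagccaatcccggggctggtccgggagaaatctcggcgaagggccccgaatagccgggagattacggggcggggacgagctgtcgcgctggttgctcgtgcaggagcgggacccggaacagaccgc
TRIM69 (chr15:44736278-44736577, plus strand): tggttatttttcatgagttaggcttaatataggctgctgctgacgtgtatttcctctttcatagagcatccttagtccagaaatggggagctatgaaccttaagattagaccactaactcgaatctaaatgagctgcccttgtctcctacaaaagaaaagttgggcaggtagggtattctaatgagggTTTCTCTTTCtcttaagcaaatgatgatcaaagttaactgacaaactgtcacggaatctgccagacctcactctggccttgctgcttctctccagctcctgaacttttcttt
TRIM38 (chr6:25962552-25962851, plus strand): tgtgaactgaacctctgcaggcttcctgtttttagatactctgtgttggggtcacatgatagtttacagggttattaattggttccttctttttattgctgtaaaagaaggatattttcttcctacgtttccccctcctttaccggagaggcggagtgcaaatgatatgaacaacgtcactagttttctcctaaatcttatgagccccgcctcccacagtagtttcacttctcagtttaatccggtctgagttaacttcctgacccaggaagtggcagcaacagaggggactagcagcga

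TRIM5 and TRIM14 both had the core on the strand opposite to the gene, starting 27 and 26 bases before the start. TRIM21 had a pair of cores that overlap by 4 bases, just downstream of its start, and TRIM26 a like pair on the opposite strand, farther upstream. A match describes the letters in these windows and is neither a binding site nor a cause, and the window of TRIM38 says only that the core is not within these 300 bases. The windows of TRIM25 and TRIM56 held no match either, and TRIM22 had no entry. Only the first window per gene was searched, and other starts were not. The window of TRIM69 lies inside its GENCODE v29 span (chr15:44728988-44767829), downstream of the first base of that span.

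Several of the lowered genes are neighbors on chromosome 11p15. Of 8 TRIM genes listed for 11p15, 6 were tested, with a median log2 fold change of -1.57. Of these, 4 (TRIM5, TRIM21, TRIM22 and TRIM66) fell, 3 by more than 2-fold, beside 33.2% and 9.68% of all genes tested. In GENCODE v29, TRIM22 lies within the span of TRIM5 (chr11:5663557-5938619) but on the opposite strand, and their annotated exons do not overlap. The RefSeq window at the start of TRIM5 (chr11:5685025-5685324) ends before the first base of TRIM22 (5689689). By that start TRIM22 lies outside TRIM5. TRIM6, which ends 76.7 kb before the start of TRIM22, was at 4.85, 4.73 and 5.02 CPM in shCTL and 4.997, 5.47 and 5.54 CPM in shPBRM1 (log2 fold change 0.13, SE 0.053, adjusted p = 0.288), and its groups overlapped. TRIM3, an NHL repeat gene at the other end of the region, had a log2 fold change of 0.086 (SE 0.084, adjusted p = 0.453). Large falls and values near 0 thus stood side by side within the cluster. Between the first base of TRIM21 and the last base of TRIM3 (chr11:4384897-6474459), 3 of the 5 TRIM genes tested fell, compared with 1 of the 5 other genes tested, of which 2 rose. Shared sequence was counted, here and below, over the 75-base stretches of the longest coding transcript of a gene. Of TRIM6, 32.6% of these stretches also occur in the read-through gene TRIM6-TRIM34, and of TRIM34 89.3%. TRIM34 and TRIM6-TRIM34 both had no count in any library, so the level of TRIM34 cannot be read from its own count. TRIM68, the remaining gene between TRIM21 and TRIM6, had 4, 17 and 8 counts in shCTL and 0, 2 and 2 in shPBRM1, a ratio of 8.65 by depth-scaled sums (95% interval 3.04 to 33.9, counting error only), and did not enter the test.

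**Figure D4:**
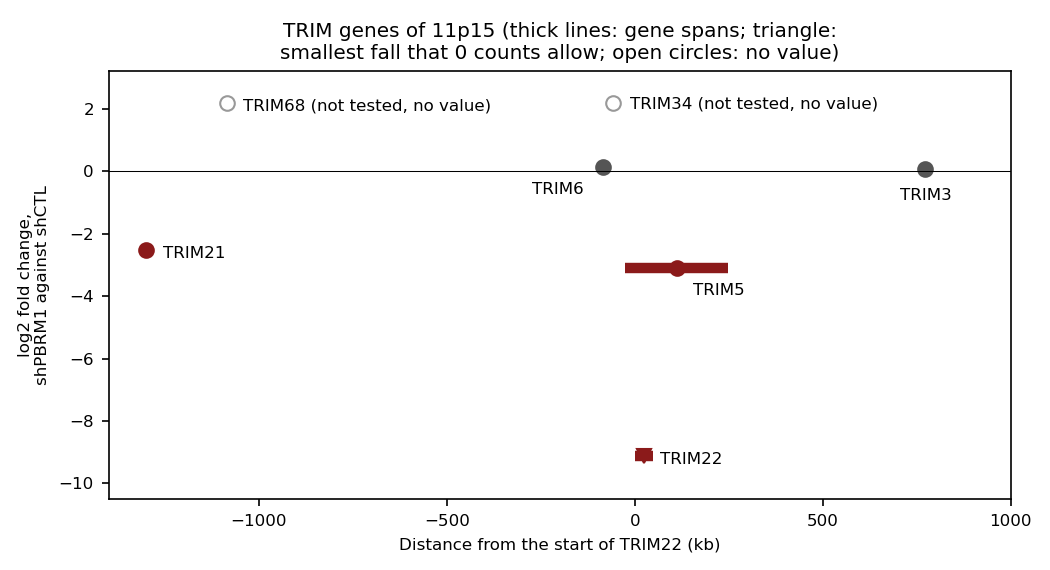
Log2 fold change of shPBRM1 against shCTL for the TRIM genes of the 11p15 cluster (vertical axis) by distance from the start of TRIM22 in kb (horizontal axis). Thick lines are gene spans, the triangle is the smallest fall that the 0 counts of TRIM22 allow, and open circles mark genes with no fitted value. TRIM21, TRIM5 and TRIM22 lie far below 0, whereas TRIM6 and TRIM3 lie near 0.

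Members outside the IFN-inducible list also fell by more than 2-fold. TRIM58, known for its part in red cell maturation, was at 9.14, 7.30 and 9.26 CPM in shCTL and 1.07, 1.18 and 0.926 CPM in shPBRM1 (log2 fold change -3.03, SE 0.15, adjusted p = 8.47e-15). TRIM9, a neuronal ligase of axon branching, was at 2.65, 2.41 and 2.12 CPM against 0.999, 1.31 and 0.988 CPM (log2 fold change -1.14, SE 0.17, adjusted p = 1.53e-05). For both genes the shCTL libraries were all above the shPBRM1 libraries. TRIM67, the neuronal paralog of TRIM9, had 17, 12 and 19 counts in shCTL and 0, 0 and 2 in shPBRM1, a mean of 8.33 that is below the limit of 10. Its ratio of shCTL to shPBRM1 was 28.6 with a 95% interval of 7.51 to 243 from counting error alone (adjusted p = 2.12e-05 by edgeR). TRIM9 and TRIM67 belong to the subfamily with a COS box, a fibronectin type III repeat and a SPRY domain. Of the same subfamily, TRIM36 and TRIM46 did not pass the test, and MID1, which has the same domains under another name, fell from 124 ± 2.39 to 108 ± 0.641 CPM (log2 fold change -0.19, adjusted p = 1.93e-05). The log2 fold changes of TRIM36 and TRIM46 were 0.19 (adjusted p = 0.0812) and -0.13 (adjusted p = 0.119). Without shCTL replicate 1, TRIM36 passed (log2 fold change 0.30, adjusted p = 0.00808).

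The chromatin-associated members, which combine a TRIM module with a PHD finger and a bromodomain, differed by less than 2-fold. TRIM28 (KAP1), the corepressor of KRAB zinc finger proteins, was at 234, 247 and 240.4 CPM in shCTL and 254, 243 and 240.2 CPM in shPBRM1, with overlapping groups (log2 fold change 0.031, SE 0.033, adjusted p = 0.492). TRIM24, a coregulator of nuclear receptors, fell from 46.9, 46.4 and 49.0 CPM to 37.3, 35.9 and 35.2 CPM (log2 fold change -0.39, SE 0.035, adjusted p = 1.37e-07). TRIM33, a regulator of SMAD signaling, fell from 108, 108 and 110.1 CPM to 90.9, 86.7 and 92.0 CPM (log2 fold change -0.27, SE 0.028, adjusted p = 1.82e-07). TRIM66, a related gene that lacks a RING domain, was at 4.18, 3.54 and 3.21 CPM against 3.05, 1.67 and 2.15 CPM (log2 fold change -0.64, SE 0.27, adjusted p = 0.00280). Thus 3 of the 4 fell (33.2% of all genes tested), none by more than 2-fold, with a median of -0.33. Of 9 genes listed as partners of TRIM28 in transcriptional repression, 7 rose and 1 fell, beside 31.5% and 33.2% of all genes tested. Their median log2 fold change was 0.30. The largest rise among them was that of CBX5, the heterochromatin protein HP1 alpha, from 529 ± 13.8 to 859.9 ± 6.67 CPM (log2 fold change 0.70, adjusted p = 1.09e-13), and the one fall was that of ATF7IP (log2 fold change -0.41, adjusted p = 1.21e-09). SETDB1, the histone methyltransferase recruited by TRIM28, had a log2 fold change of -0.087 (adjusted p = 0.119).

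Genes of RNA sensing that were listed with TRIM25 and RIG-I showed larger differences. Of 5 such genes tested, 4 fell, 3 of them by more than 2-fold, beside 33.2% and 9.68% of all genes tested. Their median log2 fold change was -1.20. The paper had already reported lower RIG-I and MDA5 expression after PBRM1 silencing, and the list was drawn up with earlier results known. These counts therefore describe it and are not independent evidence. The RNA sensors DDX58 (RIG-I) and IFIH1 (MDA5) had log2 fold changes of -3.25 and -5.24, and ZC3HAV1, an antiviral RNA-binding protein that TRIM25 assists, of -1.20. The signaling adaptor MAVS fell by 0.18 on the log2 scale, and RNF135, another ligase of RIG-I, had a log2 fold change of -0.11 (adjusted p = 0.323). TRIM65, a ligase of MDA5, fell from 31.5 ± 0.290 to 20.3 ± 0.361 CPM (log2 fold change -0.64, adjusted p = 7.55e-10).

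Of the tested members, 6 were higher in shPBRM1 cells, 5 of them by less than 2-fold. TRIM2, an NHL repeat ligase of neurons, had the clearest rise, from 20.6, 23.5 and 23.0 CPM to 33.7, 31.6 and 34.9 CPM (log2 fold change 0.58, SE 0.071, adjusted p = 1.96e-08), with no overlap. TRIM59, which carries a transmembrane segment, was at 2.06, 1.89 and 2.68 CPM against 2.80, 3.39 and 2.92 CPM (log2 fold change 0.44, SE 0.17, adjusted p = 0.0193), and 21.0% of its 75-base stretches are shared with AC079594.2. TRIM44, which lacks a RING domain, was at 142, 142 and 142 CPM in shCTL and 159, 148 and 156 CPM in shPBRM1 (log2 fold change 0.12, SE 0.030, adjusted p = 0.00533). TRIM59 and TRIM44 did not overlap between the groups either. TRIM16, which also lacks a RING, was at 30.2, 31.9 and 28.8 CPM against 35.2, 33.7 and 33.2 CPM (log2 fold change 0.17, SE 0.049, adjusted p = 0.0101). However, 51.1% of the 75-base stretches of its longest coding transcript are shared with TRIM16L and AC005324.3. TRIM62 was at 9.83, 10.3 and 12.8 CPM in shCTL and 12.9, 12.5 and 12.7 CPM in shPBRM1, so that the groups overlapped (log2 fold change 0.20, SE 0.12, adjusted p = 0.0474).

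TRIM61 had the only rise over 2-fold and the lowest mean of the described members, 11.2 counts. It had 4, 2 and 11 counts in shCTL and 23, 7 and 20 counts in shPBRM1, with overlapping groups (log2 fold change 1.26, SE 0.54, adjusted p = 0.0472). With the replicate number as a block its adjusted p was 0.0514, which left no member higher by more than 2-fold. Its call was also lost without shCTL replicate 1 (log2 fold change 1.19), shCTL replicate 2 (0.83), shPBRM1 replicate 1 (1.04) or shPBRM1 replicate 3 (1.23). Of its 75-base stretches, 29.9% occur in AC106872.5 or TRIM60P14.

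The smaller rises depended on single libraries as well. TRIM62 no longer passed without shCTL replicate 1 (log2 fold change 0.13), shCTL replicate 2 (0.16), or shPBRM1 replicate 1, 2 or 3 (0.20, 0.22 and 0.21). TRIM59 lost its call without shCTL replicate 1 (0.40), shCTL replicate 2 (0.33) or shPBRM1 replicate 2 (0.37), and TRIM16 without shCTL replicate 3 (0.13). TRIM2 and TRIM44 kept theirs with any 1 library left out.

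The remaining members that were lower in shPBRM1 had falls of less than 2-fold. The largest were those of TRIM47, from 21.5 ± 0.894 to 11.8 ± 1.75 CPM (log2 fold change -0.87, adjusted p = 4.16e-09), and TRIM45, which carries a filamin-type repeat, from 9.79 ± 0.406 to 6.09 ± 0.620 CPM (log2 fold change -0.69, adjusted p = 1.05e-06). TRIM35 and TRIM27 followed with -0.53 and -0.49, and TRIM11 and TRIM4 with -0.37 and -0.31. TRIM27 was at 18.3, 19.6 and 19.8 CPM in shCTL and 15.7, 15.7 and 10.1 CPM in shPBRM1, with shPBRM1 replicate 3 lying below the other two. TRIM23, which ends in an ARF GTPase domain, had the smallest fall, -0.17 (adjusted p = 0.0178). Its call was lost without shCTL replicate 2 (-0.12), shPBRM1 replicate 1 (-0.15) or shPBRM1 replicate 2 (-0.14).

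The members with no call among the 41 were TRIM3, TRIM6, TRIM7, TRIM8, TRIM13, TRIM17, TRIM28, TRIM32, TRIM36, TRIM37, TRIM41, TRIM46 and TRIM52, with log2 fold changes from -0.13 to 0.19. TRIM8, a regulator of cytokine signaling, was at 107, 111 and 112 CPM in shCTL and 108, 123 and 115 CPM in shPBRM1 (log2 fold change 0.063, SE 0.059, adjusted p = 0.180). TRIM37, a ligase of peroxisomes and centrosomes with a MATH domain, had a log2 fold change of 0.038 (SE 0.035, adjusted p = 0.474). TRIM32, an NHL repeat ligase mutated in a limb-girdle muscular dystrophy, was at 31.2, 32.2 and 32.5 CPM against 31.0, 29.4 and 27.6 CPM, without overlap but with an adjusted p of 0.0563. With the replicate block TRIM32 passed (adjusted p = 0.0427), as it did without shPBRM1 replicate 1 (log2 fold change -0.16). Leaving out shPBRM1 replicate 1 also brought TRIM8 past the threshold (0.11), and leaving out shCTL replicate 3 did so for TRIM41 (-0.15).

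Read by structure, the other lists were small. Their counts stand beside 33.2% of all genes tested that were lower and 31.5% that were higher at an adjusted p under 0.05. Of the NHL repeat genes, 3 were tested, and TRIM2 was the only one to change (median log2 fold change 0.086). Of the 4 members listed for a COS box, TRIM9, TRIM36, TRIM46 and TRIM67, 2 fell (median -0.63), and of the 3 with an ARF, MATH or filamin-type domain, 2 fell (median -0.17). Of the transmembrane members, TRIM59 rose and TRIM13 had no call (median 0.20). Of the 4 tested members without a RING, TRIM14 and TRIM66 fell and TRIM16 and TRIM44 rose (median -0.26). Of 8 members listed for the MHC region on 6p, the 3 that were tested, TRIM26, TRIM27 and TRIM38, all fell (median -0.62). TRIM61 was the only 1 tested of the primate-expanded or germline genes. TRIM55 was the only 1 tested of the muscle genes (log2 fold change -0.97, adjusted p = 0.0930). Among proteins of TRIM architecture with other names, 5 were tested, MEFV through its shCTL counts alone, and all 5 fell (median -1.09). The largest falls among them were those of MEFV, the pyrin gene, with 18, 18 and 18 counts against 4, 0 and 4 (log2 fold change -2.97, adjusted p = 1.20e-04), and PML, the scaffold of PML nuclear bodies, from 111 ± 3.81 to 34.1 ± 1.58 CPM (log2 fold change -1.71, adjusted p = 2.58e-20).

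Levels were compared between members per kb of annotated exon. In shCTL cells TRIM28 was the most abundant, at 59.6 ± 1.66 CPM per kb, followed by TRIM25 at 24.6 ± 0.420, TRIM56 at 15.4 ± 0.552, TRIM21 at 14.9 ± 0.775 and TRIM14 at 13.6 ± 0.104 CPM per kb. TRIM56 and TRIM21 lay within their spread of each other. By this length, 4 of the 5 highest members in control cells came from the IFN-inducible list, with TRIM8 next at 11.6 CPM per kb. The length joins the exons of all annotated transcripts of a gene, 9542 bases for TRIM8 and 1929 for TRIM21. Close ranks, and so this count, could differ with the length of a single transcript. In shPBRM1 cells TRIM28 and TRIM25 kept ranks 1 and 2 of 41, at 60.9 ± 1.77 and 13.0 ± 0.0547 CPM per kb, and TRIM8 (12.1), TRIM44 (11.8) and TRIM33 (9.39 CPM per kb) followed. TRIM56, TRIM21 and TRIM14 moved to ranks 8, 22 and 19, with 7.26, 2.63 and 3.38 CPM per kb. TRIM22 went from rank 17 to 41 and TRIM38 from rank 30 to 40.

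Of the members with fewer counts, TRIM55 lay just below the limit with a mean of 9.67 counts and TRIM61 just above it with 11.2. TRIM71, the NHL repeat gene LIN41 of early development, had 4, 6 and 4 counts in shCTL and 8, 14 and 16 in shPBRM1, and TRIM29, a gene of basal and squamous epithelia, had 4, 12 and 0 counts against none. TRIM39 had 10, 7 and 5 counts against 6, 3 and 6, with 33.9% of its 75-base stretches shared with TRIM39-RPP21, which had no count. TRIM73 had 0, 2 and 0 counts against 5, 3 and 0. With all 6 libraries, TRIM29, TRIM39, TRIM71 and TRIM73 did not pass the filter on low counts. Without shPBRM1 replicate 1 TRIM71 did, and was then called higher (log2 fold change 1.52, adjusted p = 0.0339). The others under a mean of 10 were TRIM43, TRIM50, TRIM60, TRIM63, TRIM67, TRIM68 and TRIM74. TRIM73 and TRIM74 share 81.9% and 88.2% of their 75-base stretches with other genes. The 13 members with no count were TRIM10, TRIM15, TRIM31, TRIM34, TRIM40, TRIM42, TRIM48, TRIM49, TRIM51, TRIM54, TRIM64, TRIM72 and TRIM77. A count of 0 allows up to 3 counts in a library, or 0.0471 to 0.0804 CPM, from counting error alone.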

How the data were processed

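Poly(A) libraries (TruSeq Stranded mRNA) of 3 shCTL and 3 shPBRM1 BT-549 samples were analyzed. The authors deposited a table of raw counts per gene symbol. The submitters' processing notes name CASAVA 1.8.2, STAR 2.7.9a, featureCounts, DESeq2 1.24.0 and the build GRCh38.p7. The strand setting of the counting is not given in the sources used here. Of the 41 described genes, 10 overlap exons of another gene on the same strand and 16 on the other strand, and reads may be shared there. The control columns carry the cell line and a replicate number but not the word control, and were assigned because the shPBRM1 columns are named as such. No other columns of samples were present. The table has 14 genes turned into dates and 2 duplicated symbols, none of them members.

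Tests were run in edgeR 4.0.16 under R 4.3.3, after a check of the script on simulated data. They used filterByExpr, TMM factors, the quasi-likelihood F-test and Benjamini-Hochberg adjustment over 15450 genes. Levels are TMM-scaled CPM. Each SE was computed from the SD of log2 CPM within the groups, with a prior count of 2. It is not the error of the fitted log2 fold change or of the test. Replicates differed by more than sampling noise (chi-square per degree of freedom 4.92 to 24.9). Same-numbered samples, as numbered in the titles, deviated together (correlations 0.733, 0.593 and 0.418 over 5622 genes). However, shPBRM1 replicate 3 correlated slightly more with shCTL replicate 2 (0.464), so the numbers pair the samples only in part. The main fit left this pairing out, and the replicate block below includes it. The named genes were those past both thresholds, the 5 largest rises and falls, the IFN-inducible and chromatin lists, the 5 highest per length and those nearest the mean of 10 counts. The members and lists were chosen with earlier results of these data known. Alternatives were DESeq2 1.42.0, other scaling, other filters, a replicate block and leaving out each library. Coordinates are from GENCODE v29, and promoter windows from RefSeq. Protein sequences were not used here.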

Additional observations from a re-analysis of the deposited data

How the results depend on the processing

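Of the 43 tested members, 3 changed sign under an alternative, each without a call: TRIM28 (-0.018) and TRIM37 (-0.011) with scaling by library size only, and TRIM7 (0.014) without shPBRM1 replicate 3. The other 40 kept their direction in every fit that included them, TRIM55 and TRIM67 being left out by the filter at a mean of 10 counts. The count of members lower by more than 2-fold was 9 to 12 over the alternatives, with 10 whichever library was left out, and the count lower at any fold was 22 to 26 (22 to 24 with a library left out). The single member higher by more than 2-fold, TRIM61, was lost with DESeq2, with scaling by library size only, with no filter on low counts and with the replicate block, each giving 0. At an unadjusted p under 0.05 the count was 0 with DESeq2 and 1 in the other 3 edgeR fits. With 1 library left out the count was 0 to 1, being 0 without shCTL replicate 1, shCTL replicate 2 or shPBRM1 replicate 3. Without shPBRM1 replicate 1 the 1 member was TRIM71, which then entered the test (log2 fold change 1.52, adjusted p = 0.0339), and not TRIM61. The 6 members higher at any fold became 2 with scaling by library size only, which moved the median of all genes to -0.056, and 3 to 6 with 1 library left out, the 3 without shCTL replicate 2. Under library size scaling TRIM16, TRIM44, TRIM61 and TRIM62 lost their calls and TRIM32, TRIM41 and TRIM46 passed as lower. The median log2 fold change was -0.49 with no filter, where 53 rather than 43 members enter, and -0.32 to -0.27 with a library left out. The cause of the other differences was not tested. The replicate block changed the calls of TRIM61 and TRIM32 and no other call. DESeq2 and the filter at a mean of 10 counts also lost TRIM62 (adjusted p 0.0528 and 0.0501). Depth limits members under about 10 counts, where 3 counts are 0.0471 to 0.0804 CPM.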

Other observations

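A further 47 genes of the table carry a TRIM name but not the plain symbol, such as antisense genes, pseudogenes and TRIM16L, and 3 of them had a mean of 10 or more counts. TRIM16L, a truncated relative of TRIM16, rose from 37.0 ± 1.55 to 50.4 ± 3.05 CPM (mean ± SD, n = 3, log2 fold change 0.45, SE 0.061, adjusted p = 5.80e-08 by edgeR), beside a log2 fold change of 0.17 for TRIM16, with which it shares sequence. TRIM52-AS1, annotated antisense to TRIM52, rose from 11.2 ± 1.44 to 13.5 ± 0.327 CPM (log2 fold change 0.28, adjusted p = 0.00625), whereas TRIM52 had a log2 fold change of -0.055 (adjusted p = 0.660). The pseudogene TRIM60P17 had 6, 9 and 12 counts in shCTL and 24, 11 and 16 in shPBRM1 (log2 fold change 0.66, adjusted p = 0.203).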
